A study of Mus musculus with 13 samples.

Results

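The beta subunits of the sodium pump, *Atp1b1*, *Atp1b2* and *Atp1b3*, were followed from the embryo to the adult in single neurons of mouse dorsal root ganglia (DRG), sorted by reporters of proprioceptive sensory neurons (pSNs). These 3 genes were chosen by name, as the genes that encode beta 1, beta 2 and beta 3 of the pump, from 50508 listed genes, of which 30658 had a unique molecular identifier (UMI) in any well. Fluorescent neurons had been sorted 1 per well into 13 plates of 96 wells, 2 plates from e14.5, 2 from p0, 4 from p12 and 5 from the adult, and sequenced by Plate-seq. Adult mice were older than p56. Neurons of the adult, p12 and p0 mice carried PV:Cre+/-;Rx3:Flp+/-;Ai65+/-, in which tdTomato (tdT) marks cells that have expressed both parvalbumin (*PV*) and *Runx3* (*Rx3*) at some stage. Neurons of the e14.5 embryos carried TrkC:tdTomato instead, so the step from e14.5 to p0 is also a step between reporters, and stage and reporter cannot be told apart there. The embryonic reporter also labels other *Rx3* neurons. At e14.5 the neurons of the authors' clusters 3 (34 neurons) and 4 (6 neurons) had a summed level of 5 proprioceptor markers of 713 and 665 CPM (UMIs per 1000000 UMIs), against 1844 and 2054 CPM in clusters 1 and 2, and all 4 clusters are in the e14.5 values unless named otherwise. DRG of more than 1 animal were used at each stage. The plates are the replicates, and since the labels do not say which animals a plate holds, p-values measure the spread between plates, which may be technical. The study took its adult neurons from 3 experiments, so some of the 5 adult plates share an experiment. Kept neurons are the 586 that the authors retained and clustered, 169 at e14.5, 55 at p0, 154 at p12 and 208 in the adult. Left-out wells are the 551 others with at least 2000 detected genes.

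The sodium pump is a P-type ATPase that moves sodium out of the cell and potassium in, and the gradients it builds carry the action potential and drive many transporters. A catalytic subunit pairs with a glycosylated beta subunit, which it needs to fold and to reach the plasma membrane. Small FXYD proteins bind the pair and tune its affinity for ions. In the nervous system beta 2 is known also as an adhesion molecule on glia.

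All 3 genes lie on the reverse strand of GRCm38, the build that is also called mm10. *Atp1b1* (gene 11931) spans chr1:164437099-164458355, *Atp1b2* (gene 11932) spans chr11:69599728-69605978 and *Atp1b3* (gene 11933) spans chr9:96332655-96364431. The 250 bases before each annotated start are shown because all 3 genes encode the same kind of subunit but differed in when and where they were counted. They come from the RefSeq promoter windows of the same build, which matched 2 of the 3 genes by symbol, and each is written 5′ to 3′ along the gene, with capitals for the motifs found. *Atp1b1*, chr1:164458356-164458605, reverse strand, has a GC content of 70.4%. *Atp1b3* has 2 annotated starts, and its windows are chr9:96364432-96364681 and chr9:96363716-96363965, with a GC content of 73.6% and 76.8%.
Atp1b1: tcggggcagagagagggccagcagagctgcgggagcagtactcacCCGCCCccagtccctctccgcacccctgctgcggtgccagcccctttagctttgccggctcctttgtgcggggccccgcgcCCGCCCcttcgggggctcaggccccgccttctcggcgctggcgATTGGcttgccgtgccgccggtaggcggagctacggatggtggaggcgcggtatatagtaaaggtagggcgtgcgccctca
Atp1b3 start 1: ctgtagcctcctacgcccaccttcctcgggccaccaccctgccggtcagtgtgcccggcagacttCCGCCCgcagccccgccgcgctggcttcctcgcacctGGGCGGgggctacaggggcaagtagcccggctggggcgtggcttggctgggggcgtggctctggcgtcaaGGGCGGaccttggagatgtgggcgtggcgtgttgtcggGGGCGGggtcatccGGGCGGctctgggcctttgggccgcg
Atp1b3 start 2: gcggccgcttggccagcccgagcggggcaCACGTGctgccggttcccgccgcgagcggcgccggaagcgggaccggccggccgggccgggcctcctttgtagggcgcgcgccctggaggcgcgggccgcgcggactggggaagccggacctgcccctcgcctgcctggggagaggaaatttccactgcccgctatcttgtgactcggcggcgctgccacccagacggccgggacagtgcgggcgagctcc

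On both strands, 5 motifs were searched, the GC box GGGCGG, the CCAAT box CCAAT, the TATA box TATAAA, the E box CACGTG and the nuclear receptor motif AGGTCA. The *Atp1b1* window held GC boxes at 205 and 124 bases before the start and a CCAAT box at 81 bases. The first *Atp1b3* window held 5 GC boxes, the nearest of them 26 bases before the start, and the second held 1 E box, at 221 bases. Among all 32536 windows of the same length, 33.0% held a GC box, 33.8% a CCAAT box, 12.3% a TATA box, 6.04% an E box and 14% a nuclear receptor motif, and the median GC content was 52.4%. These matches are descriptions of the letters only.

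Per plate, the kept neurons numbered 12 to 94 and held between 680212 and 2387288 UMIs. Mean depth per kept neuron was lowest at e14.5 (9669 and 13061 UMIs) and reached 65165 UMIs on a p12 plate. Levels are given as CPM, the UMIs of a gene per 1000000 UMIs of the well. They were averaged first within a plate, and stage values are the mean ± SD of these plate means. *Pvalb* was counted in every kept postnatal neuron and in 85.3% and 92.6% of the e14.5 neurons on the 2 plates, and *Ntrk3*, the neurotrophin receptor of proprioceptors, in at least 93.6% on every plate. *Runx3* itself was counted in 60.0 and 66.0% of e14.5 neurons, 79.2 and 80.6% at p0, 29.0 to 91.7% at p12 and 69.8 to 76.7% in the adult. Sums of UMIs over a plate were fitted and tested in edgeR, and a gene was called at a Benjamini-Hochberg adjusted p under 0.05 over all genes tested. A log2 difference from this fit is relative to the other genes, since the sums were scaled by TMM.

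*Atp1b1* was low in e14.5 neurons, rose by p0 and again by p12, and fell into the adult. Its level was 44.6 and 73.0 CPM on the 2 e14.5 plates and 404 and 428 CPM on the 2 p0 plates. The 4 p12 plates gave 661, 752, 1055 and 894 CPM, and the 5 adult plates 575, 474, 663, 589 and 461 CPM. The e14.5, p0 and adult ranges were separate from each other, and the p12 range met the adult range at a single point, where the lowest p12 plate fell below the highest adult plate. Stage means were 58.8 ± 20.1 (n = 2), 416 ± 17.2 (n = 2), 840 ± 172 (n = 4) and 552 ± 84.5 CPM (n = 5). The rise from e14.5 to p0 was 2.73 on the log2 scale (SE 0.33, 95% interval 2.04 to 3.43, adjusted p = 5.88e-05), in a comparison that called 27.8% of 11939 genes. With e14.5 clusters 1 and 2 alone it was 2.67 (adjusted p = 8.59e-05). From p0 to p12 it rose by a further 1.21 (SE 0.27, interval 0.64 to 1.79, adjusted p = 0.00584), where 18.1% of genes were called. From p12 to the adult it fell by 0.68 (SE 0.19, interval -1.10 to -0.27, adjusted p = 0.0313), where 14.1% of genes were called. Any difference across stages had an adjusted p of 1.05e-06, and 64.6% of genes passed that test, so a call across stages was common. The call from p0 to p12 was lost without either p0 plate (adjusted p = 0.0832 without replicate 1 and 0.0706 without replicate 2). The fall into the adult was lost without p12 replicate 3 (-0.53, adjusted p = 0.116) or replicate 4 (-0.62, 0.0843), and without p0 replicate 1 (-0.67, 0.0528) or 2 (-0.67, 0.0544). It was also lost with thinned neurons (-0.63, adjusted p = 0.0594) and with left-out wells included (-0.58, 0.110).

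At the level of single neurons, *Atp1b1* had a UMI in 77 of 169 neurons at e14.5 and in each of the 55, 154 and 208 kept neurons at p0, p12 and in the adult. The median count per neuron was 0 UMIs at e14.5, 17 at p0, 21.5 at p12 and 20.5 in the adult. Neurons were then thinned to 7000 UMIs each, which left out shallower ones, so that 71 of 75 and 80 of 94 neurons remained on the e14.5 plates, 66 of 67 and 61 of 62 on p12 replicates 3 and 4, and all on the other plates. Among these the share with a UMI was 31.4 ± 8.59% at e14.5, 93.1 ± 3.90% at p0, 97.9 ± 4.17% at p12 and 94.6 ± 5.77% in the adult. Thus the e14.5 plates stood apart at equal depth too, and the 3 later stages overlapped on this measure. The last 627 bases of *Atp1b1* overlap the 3′ end of *Nme7* on the other strand. Whether reads were counted by strand is not given in the sources used here, so UMIs from the overlap cannot be assigned with certainty. *Nme7* itself was counted at 29.8 ± 2.36 CPM at e14.5, 61.4 ± 34.4 at p0, 36.4 ± 29.3 at p12 and 207 ± 87.7 in the adult, and its part in the *Atp1b1* values was not tested.

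*Atp1b3* was counted at every stage. Its level was 33.4 and 22.4 CPM at e14.5 and 60.5 and 37.8 CPM at p0. It was 20.6, 22.1, 35.7 and 34.0 CPM at p12 and 32.3, 29.7, 29.1, 29.3 and 30.0 CPM in the adult. Both p0 plates lay above all p12 and adult plates, and the e14.5, p12 and adult plates overlapped. The means were 27.9 ± 7.73, 49.1 ± 16.0, 28.1 ± 7.83 and 30.1 ± 1.31 CPM. No step between stages passed the test, though some did in alternatives. The difference was +0.67 from e14.5 to p0 (interval 0.03 to 1.31, adjusted p = 0.110, and 0.35 to 0.97 with 1 plate left out), -0.73 from p0 to p12 (interval -1.27 to -0.20, adjusted p = 0.0564, and -0.99 to -0.40 with 1 plate left out) and +0.06 from p12 to the adult (interval -0.38 to 0.49, adjusted p = 0.886). The first step was called with left-out wells included (+1.03, adjusted p = 0.0225), and the second without p12 replicate 4 (-0.87, adjusted p = 0.0343) and with DESeq2's size factors (-0.75, adjusted p = 0.0470). Any difference across stages had an adjusted p of 0.0627, and it passed with DESeq2's size factors (adjusted p = 0.0457), with left-out wells included (0.0473) and without p12 replicate 4 (0.0393) or p0 replicate 2 (0.0493). *Atp1b3* had a UMI in 46 of 169 neurons at e14.5, 43 of 55 at p0, 85 of 154 at p12 and 137 of 208 in the adult, and at equal depth in 18.8 ± 7.21%, 24.5 ± 11%, 16.8 ± 6.56% and 15.8 ± 6.60%.

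*Atp1b2* was all but uncounted in kept neurons, and most of its UMIs there came from a single p0 plate. It had 2 and 0 UMIs on the e14.5 plates, 18 and 2 on the p0 plates, 0, 0, 1 and 0 on the p12 plates, and 0, 2, 1, 0 and 2 on the adult plates. The 5 UMIs of the adult were in 5 of 208 neurons out of 9258366 UMIs, and the UMI at p12 was 1 of 4715907. At p0 12 of 31 neurons on replicate 1 had a UMI of *Atp1b2*, against 1 of 24 on replicate 2. With so few UMIs it was removed by edgeR's filter on low counts and was not tested between stages. Of the 13 p0 neurons with a UMI, 11 were in p0 cluster 1. The summed level of 13 satellite glia and Schwann cell markers was between 127 and 453 CPM in these 11, around or below the plate means of cluster 1 (352 and 451 CPM). It was 586 CPM in the neuron of cluster 2 and 3433 CPM in that of cluster 3, where the plate means were 3500 and 3558 CPM.

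**Figure D1:**
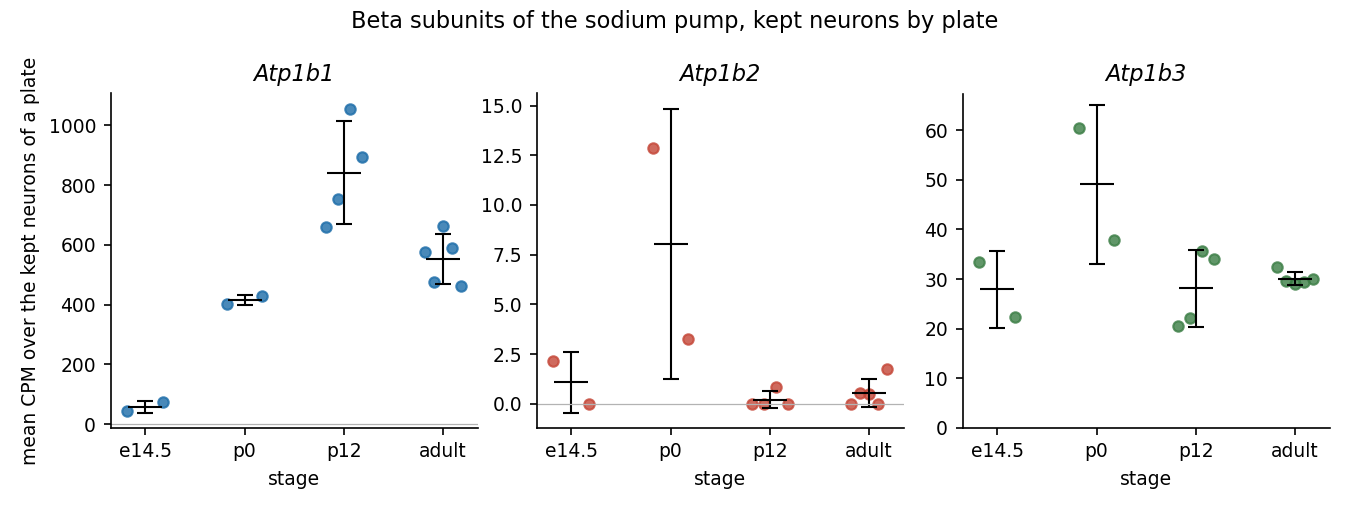
Mean CPM over the kept neurons of each plate (y axis, linear, a separate scale for each gene) by stage (x axis). Points are plates, and bars are the mean ± SD over the 2 e14.5, 2 p0, 4 p12 and 5 adult plates. *Atp1b1* goes from 58.8 CPM at e14.5 to 840 CPM at p12, *Atp1b3* stays between 20.6 and 60.5 CPM, and *Atp1b2* reaches 12.9 and 3.25 CPM on the p0 plates and at most 2.17 CPM elsewhere.

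The make-up of the beta pool shifted between stages. Counted over the UMIs of the 3 beta genes, *Atp1b1* took 55.6% and 75% on the e14.5 plates, 84.8% and 91.1% on the p0 plates, 96.6 to 97.4% at p12 and 93.6 to 95.9% in the adult. *Atp1b3* took 33.5 ± 12.0% at e14.5, 10.4 ± 2.83% at p0, 2.96 ± 0.38% at p12 and 4.99 ± 0.87% in the adult. The ranges of both shares were separate at all 4 stages. By an exact permutation of the plates over 540540 assignments, with the sum of squares between stages as the statistic, the share of *Atp1b1* differed between stages (adjusted p over the 3 shares 1.11e-05) and so did that of *Atp1b3* (1.11e-05). The share of *Atp1b2* was 1.23 ± 1.75% at e14.5, 1.65 ± 1.66% at p0, 0.0120 ± 0.0241% at p12 and 0.161 ± 0.217% in the adult (adjusted p = 0.0434). That last test rests on the few UMIs given above, and with left-out wells included its adjusted p was 0.396. Gene length was not used, so these shares describe counted molecules and no share of protein.

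**Figure D2:**
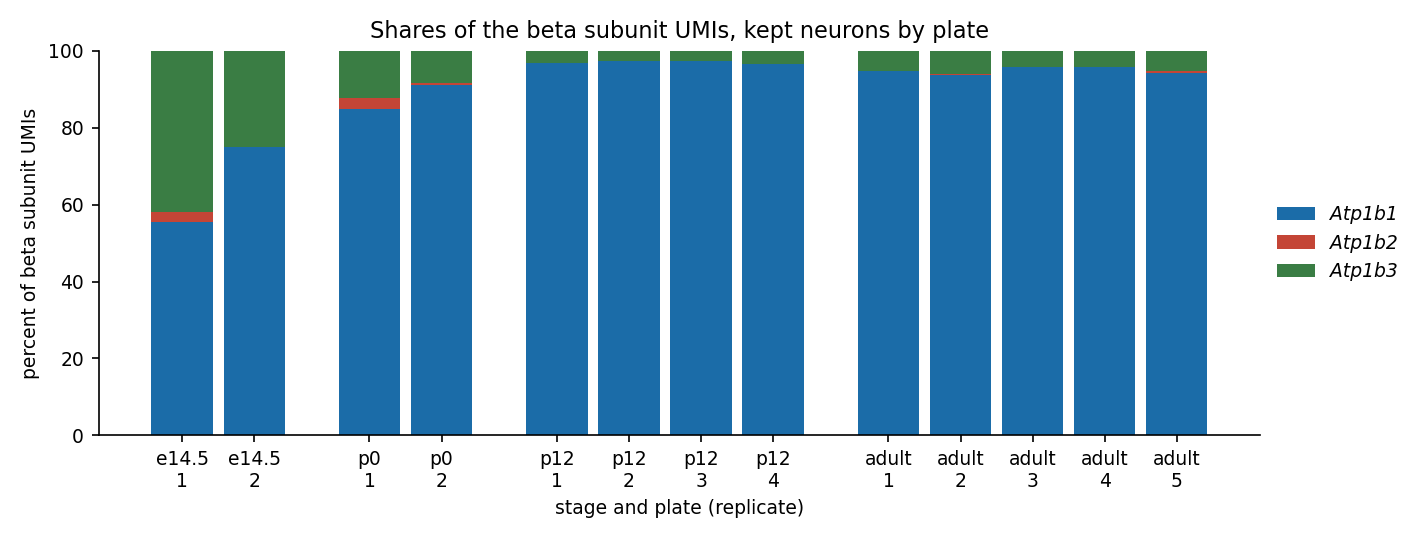
Percent of the UMIs of the 3 beta subunit genes (y axis) that each gene took in the kept neurons of each plate (x axis, stage and replicate). *Atp1b1* takes 55.6% and 75% on the e14.5 plates and at least 93.6% on every p12 and adult plate, and the *Atp1b3* share shrinks accordingly.

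The FXYD regulators were read over the same plates. Of the 7 FXYD genes, 4 were tested between stages. *Fxyd7*, a brain regulator of the pump, rose by 1.54 to p0 (adjusted p = 0.00744, and 0.0710 without e14.5 replicate 2). It fell by 1.65 into the adult (adjusted p = 7.41e-04), and fell by 3.52 (adjusted p = 3.22e-05) with the numbered adult clusters alone. Its means were 675, 2146, 1113 and 323 CPM. *Fxyd1*, known as phospholemman, stood at 2.86 and 8.71 CPM at e14.5 and at 33.1 and 16.4 CPM at p0, and rose by 1.97 (adjusted p = 0.0366). That call did not hold, since leaving out 1 plate gave 1.40 to 2.92 with adjusted p up to 0.228, and it was lost without either e14.5 plate, either p0 plate or adult replicate 1 or 4, and with e14.5 clusters 1 and 2 alone (adjusted p = 0.0534). Glial markers rose over the same step, from 159 and 174 CPM to 804 and 976 CPM on the kept plates, with 4 of 8 tested called higher and 1 lower, and their part in the *Fxyd1* value was not tested. *Fxyd6* had 10.6 ± 9.64 CPM at p12 and no UMI in any adult neuron, which allows up to 0.324 CPM there.

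Other ion pumps and users of the sodium gradient gave a wider background. Of 11 other P-type pumps, 6 were tested, and 1 fell from e14.5 to p0, 1 rose and 1 fell from p0 to p12, and 1 rose into the adult. The last was *Atp2b3*, a plasma membrane calcium pump, which rose by 1.77 (adjusted p = 0.0273) and then by 1.42 (adjusted p = 0.00552). Of 14 transporters that run on the sodium gradient, 12 were tested, and 5 rose from e14.5 to p0, 2 rose and 4 fell from p0 to p12, and 1 rose and 1 fell into the adult. Over all genes 27.8%, 18.1% and 14.1% were called in these steps, so with lists this short the counts are descriptions only. *Slc24a2*, a potassium-dependent sodium-calcium exchanger, rose by 4.00 (adjusted p = 4.25e-04) and then by 2.82 (adjusted p = 1.51e-04). The beta-like genes *Atp1b4* and *Atp4b* were not tested at any stage.

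Across the 5 adult clusters that the authors numbered, *Atp1b3* overlapped and was not called, and whether *Atp1b1* was called depended on the fit. *Atp1b1* had 488 ± 68.2 CPM in cluster 1 (n = 5 plates), 488 ± 53.8 in cluster 2 (n = 2), 508 ± 145 in cluster 3 (n = 4), 613 ± 17.5 in cluster 4 (n = 2) and 545 ± 132 in cluster 5 (n = 5). By plate, cluster 1 gave 503, 425, 567, 536 and 411 CPM and cluster 5 gave 497, 463, 739, 617 and 410 CPM, so cluster 5 was higher on 3 of 5 plates, most of all on replicate 3, and the ranges overlapped. On both plates that hold it, cluster 4 (625 and 601 CPM) lay above clusters 1, 2 (526 and 450 CPM) and 5. The 42 adult neurons without a numbered cluster had 613 ± 99.5 CPM. Each cluster was set against the mean of the others over 18 sums and 7370 genes, at first without regard to the plates that the clusters share. The *Atp1b1* difference was -0.17 in cluster 1 (interval -0.48 to 0.15, adjusted p = 0.657), -0.21 in cluster 2 (-0.67 to 0.25, 0.799), +0.01 in cluster 3 (-0.33 to 0.35, 0.998), +0.29 in cluster 4 (-0.14 to 0.72, 0.534) and +0.08 in cluster 5 (-0.23 to 0.39, 0.877). These comparisons called 5.69%, 0.0271%, 0.095%, 2.73% and 4.03% of genes. Clusters 1 and 5 against clusters 2 to 4 gave -0.06 (interval -0.34 to 0.23, adjusted p = 0.881, 5.63% of genes called), and any difference across clusters an adjusted p of 0.674 (9.67% called).

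With plate as a block, which compares clusters within a plate, *Atp1b1* passed the test in cluster 1 (-0.24, adjusted p = 0.0373), in cluster 4 (+0.40, adjusted p = 0.0470) and for any difference (adjusted p = 0.0468), where 12.6%, 4.88% and 16.0% of genes were called. With replicates 1 and 2 alone, which hold all the sums of clusters 2 and 4, it was higher in cluster 4 by 0.52 (adjusted p = 0.0283, 5.53% of 7616 genes called). In clusters 1 and 4 both fits had the same direction, and the intervals without the block left room for differences of up to 0.72 in cluster 4. Cluster 5 against cluster 1 on the same 5 plates, a comparison chosen after seeing that both clusters lie on every adult plate, gave +0.20 (SE 0.09, interval 0.02 to 0.38, adjusted p = 0.164), where 11.6% of 5703 genes were called. Between replicates 1 and 2 and replicates 3 to 5, within clusters 1 and 5, *Atp1b1* differed by -0.24 (adjusted p = 0.202) and *Atp1b3* by +0.42 (adjusted p = 0.265), where 20.7% of 6985 genes were called.

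*Atp1b3* overlapped between the clusters too. It had 22.8 ± 3.09 CPM in cluster 1, 29.0 ± 12.4 in cluster 2, 26.1 ± 13.5 in cluster 3, 25.3 ± 8.17 in cluster 4 and 30.2 ± 9.61 in cluster 5, and 39.1 ± 15.9 in the neurons without a numbered cluster. Its differences ran from -0.19 in cluster 1 (interval -0.62 to 0.23) to +0.14 in cluster 5 (interval -0.31 to 0.59), and any difference had an adjusted p of 0.925. Cluster 5 against cluster 1 on the same plates gave +0.25 (adjusted p = 0.654). *Atp1b2* had 3 UMIs in cluster 1, 1 each in clusters 3 and 5 and none in clusters 2 and 4, where a count of 0 allows up to 6.45 and 5.0 CPM.

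*Fxyd7* was higher in clusters 4 and 5 than in clusters 1 to 3. It had 11.8 ± 5.56 CPM in cluster 1, 7.44 ± 10.5 in cluster 2, 26.9 ± 37.6 in cluster 3, 266 ± 80.7 in cluster 4 and 263 ± 100 in cluster 5, and 1033 ± 347 in the neurons without a numbered cluster. Clusters 1 to 3 overlapped with each other, and so did clusters 4 and 5. On the same plates cluster 5 exceeded cluster 1 by 4.54 (adjusted p = 1.19e-11). Against the mean of the other clusters it was higher in cluster 4 (+3.42, adjusted p = 2.18e-04) and cluster 5 (+3.21, adjusted p = 1.13e-05). The numbered clusters come from these very neurons, and the values describe only how well the plates match. No test was made of whether the beta genes differed less than *Fxyd7*.

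**Figure D3:**
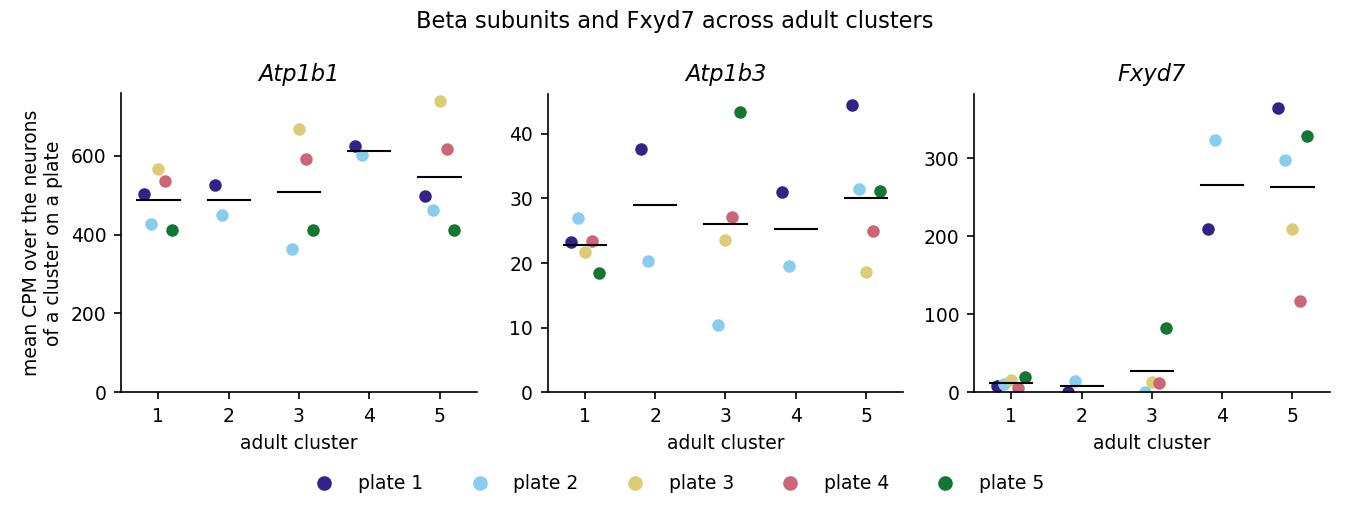
Mean CPM over the neurons of an adult cluster on a plate (y axis, linear from 0, a separate scale for each gene) by cluster (x axis). Points are plates with at least 2 neurons of the cluster, coloured by plate, and lines are means over plates. *Atp1b3* overlaps between clusters, *Atp1b1* in cluster 4 (625 and 601 CPM) lies above clusters 1 and 2 and within the range of clusters 3 and 5, and *Fxyd7* lies at 263 CPM in cluster 5 against 11.8 CPM in cluster 1.

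In the clusters of the younger stages the beta subunits were called once. At p12, *Atp1b1* had 941 ± 80.9 CPM in cluster 1, 772 ± 96.3 in cluster 2, 649 ± 165 in cluster 3, 989 ± 141 in cluster 4 and 1097 ± 69.4 in cluster 5, over 2 plates each. Any difference across these clusters had an adjusted p of 0.00392 (31.5% of 6209 genes called), and 0.0999 without p12 replicate 3. Clusters 1, 4 and 5 lay on replicates 3 and 4 and clusters 2 and 3 on replicates 1 and 2, so cluster and plate cannot be told apart between those sets. *Atp1b3* at p12 had 49.3 ± 12.6 CPM in cluster 1 and 7.35 ± 10.4 in cluster 5, with an adjusted p of 0.0526 for any difference. At p0 any difference across clusters had an adjusted p of 0.742 for *Atp1b1* and 0.820 for *Atp1b3* (1.52% of 5061 genes called). At e14.5 it was 0.888 for *Atp1b1* (4.32% of 4912 genes called), and *Atp1b3* was under the filter.

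The left-out wells showed where *Atp1b2* was counted. In the study's methods, wells were set aside for transcripts of glia, with limits on *Mbp* and *Apoe*. The deposited annotation does not follow these limits, since 326 of the 586 kept neurons, 206 of them among the 208 of the adult, were at or over the limit on *Apoe*, as were 547 of the 551 left-out wells. The rule that parted the wells is therefore not known, and left-out wells are defined here only as those outside the annotation. *Pvalb* was counted in all left-out wells of p0, p12 and the adult. *Atp1b2* had 25, 24.4, 18.2, 32.3 and 30.9 CPM in the left-out wells of the 5 adult plates and at most 1.73 CPM in the kept neurons of any of them. At p12 it had 26.6, 25.3, 3.20 and 5.56 CPM in left-out wells and at most 0.827 CPM in kept neurons. At p0 it had 28.8 and 27.7 CPM in left-out wells and 12.9 and 3.25 CPM in kept neurons. It was higher in left-out wells on all 5 adult, 4 p12 and 2 p0 plates, and replicates 3 and 4 of p12 were low beside the other plates.

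By counts, 128 of 242 adult left-out wells had a UMI of *Atp1b2* (217 UMIs) against 5 of 208 kept neurons (5 UMIs), a ratio of rates of 50.0 (95% interval 21.1 to 155). At p12 it was 111 of 216 wells (252 UMIs) against 1 of 154 neurons (1 UMI). No pooled ratio is given there, since 76 and 77 of the wells were on replicates 1 and 2, and 67 and 62 of the neurons on replicates 3 and 4. On replicate 3, with the only kept UMI, the summed wells had 2.82 CPM (2 UMIs) in left-out wells and 0.525 CPM in kept neurons. At p0 it was 50 of 92 wells (84 UMIs) against 13 of 55 neurons (20 UMIs), a ratio of 2.81 (interval 1.71 to 4.83). These exact intervals cover counting error only. In the fit with plate as a block, over 12632 genes, *Atp1b2* was higher in left-out wells by 5.36 in the adult (SE 0.44, interval 4.45 to 6.27, adjusted p = 5.45e-10, 15.3% of genes called) and by 5.42 at p12 (SE 0.77, interval 3.83 to 7.0, adjusted p = 1.63e-05, 8.31% called). Leaving out 1 plate moved the p12 value between 4.76 and 8.03, the highest without replicate 3. At p0 the difference was +1.52 (SE 0.46, interval 0.58 to 2.46, adjusted p = 0.0747, 2.73% called). It passed without p0 replicate 1, the plate with 18 of the 20 UMIs in kept p0 neurons (+3.41, adjusted p = 0.0499). The difference at p12 exceeded that at p0 by 3.89 (SE 1.11, adjusted p = 0.237, 0.253% of genes called). The adult difference and the p12 difference stood at -0.06 from each other (adjusted p = 1.0, 0.309% called). No interval is given for the latter, since its SE was 0.39 in this fit and 1.38 with DESeq2. Neither change between stages was stable. Leaving out 1 plate gave 2.02 (without p0 replicate 1) to 6.49 (without p12 replicate 3) for that from p0 to p12. For that from p12 to the adult it gave -2.69 (without p12 replicate 3) to 0.60.

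*Atp1b3* was higher in left-out wells as well, on all 5 adult, 4 p12 and 2 p0 plates. It had 50.2, 45.7, 42.4, 37.0 and 51.8 CPM in adult left-out wells, above every adult plate of kept neurons, 54.1, 58.2, 50.7 and 39.0 CPM at p12, and 65.2 and 58.2 CPM at p0. On p0 replicate 1 the highest left-out well held 30 of 138 UMIs, and the median was 2 UMIs per well, against 3 in kept neurons. On adult replicate 5 the highest left-out well held 29 of 162 UMIs. The part of these wells in the differences was not tested. The difference was +0.65 in the adult (SE 0.14, interval 0.37 to 0.93, adjusted p = 0.00124), +0.76 at p12 (SE 0.18, interval 0.39 to 1.12, adjusted p = 0.00596) and +0.41 at p0 (interval 0.00 to 0.82, adjusted p = 0.412). The p12 call was lost without p12 replicate 1 (+0.68, adjusted p = 0.0544) or replicate 2 (+0.63, adjusted p = 0.0790). With wells thinned to equal depth both the p12 call (+0.69, adjusted p = 0.494) and the adult call (+0.81, adjusted p = 0.0736) were lost.

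*Atp1b1* overlapped between the groups of wells in the adult and at p12. It had 533, 505, 655, 669 and 440 CPM in adult left-out wells and was higher there on 2 of 5 plates, with a difference of -0.06 (SE 0.06, interval -0.18 to 0.07, adjusted p = 0.611). At p12 it had 570, 585, 1085 and 872 CPM, lower than in kept neurons on 3 of 4 plates, and fell by 0.29 (SE 0.07, interval -0.42 to -0.15, adjusted p = 0.00474). That call was lost without p12 replicate 1 (-0.24, adjusted p = 0.0658) or replicate 2 (-0.18, adjusted p = 0.153), without the block (-0.25, adjusted p = 0.899) and with thinned wells (-0.066, adjusted p = 0.879). At p0 it had 356 and 365 CPM, a difference of -0.22 (interval -0.43 to -0.02, adjusted p = 0.355). No change of the left-out difference between stages was called for *Atp1b1* or *Atp1b3*.

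**Figure D4:**
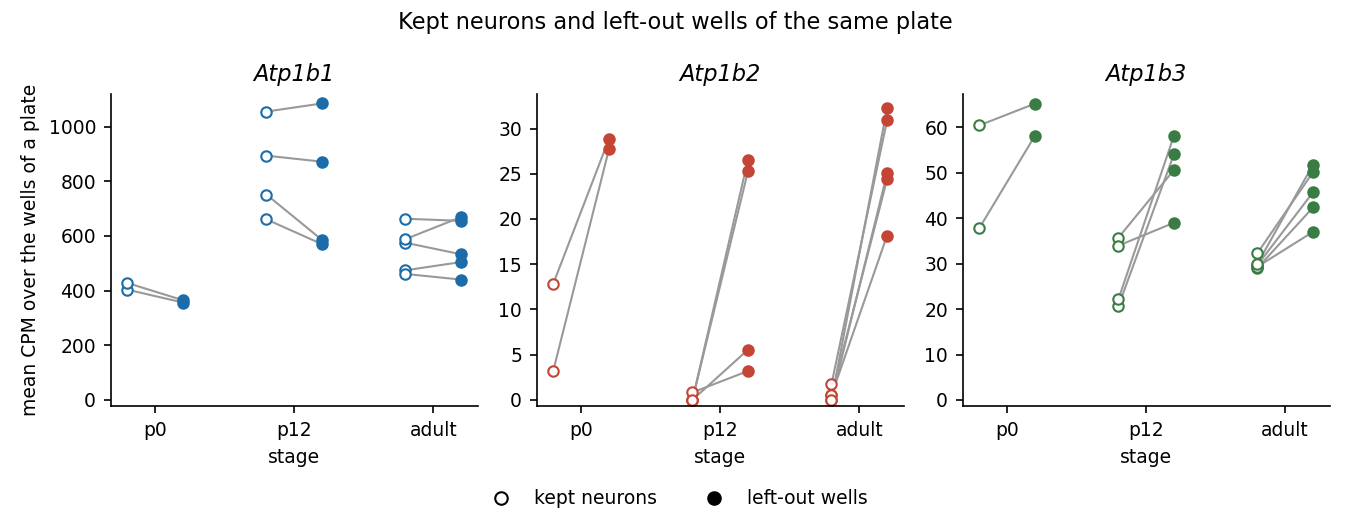
Mean CPM over the wells of a plate (y axis, linear, a separate scale for each gene) in kept neurons (open) and left-out wells (filled) of the same plate, joined by a line, by stage (x axis). *Atp1b2* and *Atp1b3* are higher in the left-out wells on all 5 adult, 4 p12 and 2 p0 plates, and *Atp1b1* on 2 adult plates and 1 p12 plate.

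Glial markers were higher in left-out wells too. The summed level of the 13 satellite glia and Schwann cell markers was 3972 to 4512 CPM per plate in left-out wells and 804 to 976 CPM in kept neurons at p0, 9427 to 11711 against 2975 to 3237 CPM at p12, and 10924 to 16698 against 3928 to 5027 CPM in the adult. Between stages this sum and *Atp1b2* did not go together. The p0 left-out wells had 28.8 and 27.7 CPM of *Atp1b2*, and adult kept neurons, with a similar sum, at most 1.73 CPM. None of the 13 was at 0 on any p12 left-out plate. On the p12 plates with low *Atp1b2*, replicates 3 and 4, the list stood at 9427 and 9525 CPM, against 11711 and 11247 CPM on replicates 1 and 2. Of the 12 glial markers tested, 10 were called higher in left-out wells in the adult, 11 at p12 and 8 at p0, and 1 lower at each stage. Markers of other sensory neurons were called higher too, 2 of 2 tested in the adult and at p0 and 1 of 2 at p12, and so were 2 of 2 markers of blood and vessels in the adult. Markers of sensory neurons were called lower in 3 of 5 and those of proprioceptors in 2 of 5, both in the adult and at p12. Over all genes 15.3%, 8.31% and 2.73% were called in the adult, at p12 and at p0. Macrophage markers reached at most 2.88 CPM and fibroblast markers 27.2 CPM in either group of wells on a plate, and markers of blood and vessels 142 CPM, on an adult left-out plate. Markers of other sensory neurons reached 236 CPM there. The part of these other cells' RNA in the *Atp1b2* and *Atp1b3* values was not tested, and more glial cells in a well cannot be told apart from more RNA per glial cell.

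Within a plate, left-out wells with a UMI of *Atp1b2* had a higher median glial level than those without it on 4 of 5 adult, 3 of 4 p12 and 2 of 2 p0 plates. The p12 plates with enough wells of both kinds went opposite ways, with 12568 against 9451 CPM on replicate 1 and 11032 against 11706 CPM on replicate 2. Only 2 and 4 wells had a UMI on replicates 3 and 4.

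Of the 7 FXYD genes, 5 were tested between left-out wells and kept neurons, and in the adult 3 were higher and 1 lower, where 15.3% of all genes were called. *Fxyd1* was higher by 4.01 in the adult (adjusted p = 6.26e-19) and 2.22 at p12 (adjusted p = 4.28e-10). At p0 it was higher by 1.04 (adjusted p = 0.0103), a call lost without p0 replicate 1 (adjusted p = 0.0642) or 2 (0.377), with thinned wells (0.784), with DESeq2 (0.106) and without the block (0.816). The adult difference exceeded that of p12 by 1.79 (adjusted p = 2.42e-04, and 0.672 without the block). *Fxyd3* was higher by 4.99 in the adult (adjusted p = 5.17e-07) and *Fxyd2*, the gamma subunit of kidney pumps, by 2.86 (adjusted p = 1.55e-06), which was lost with DESeq2 (+1.71, adjusted p = 0.269) and without the block (0.0900). *Fxyd7* was lower by 0.66 (adjusted p = 2.28e-04, and 0.195 without the block). Among users of the sodium gradient, 5 of 13 tested were higher in adult left-out wells, 3 at p12 and 1 at p0, and none was lower, where 15.3%, 8.31% and 2.73% of all genes were called. *Slc1a3*, the glial glutamate transporter, was higher by 3.07 (adjusted p = 1.38e-08) and *Slc12a2*, the sodium-potassium-chloride cotransporter, by 3.15 (adjusted p = 3.34e-12) in the adult. Of the other P-type pumps, 2 of 6 were lower at p12 and none was called in the adult or at p0.

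**Figure D5:**
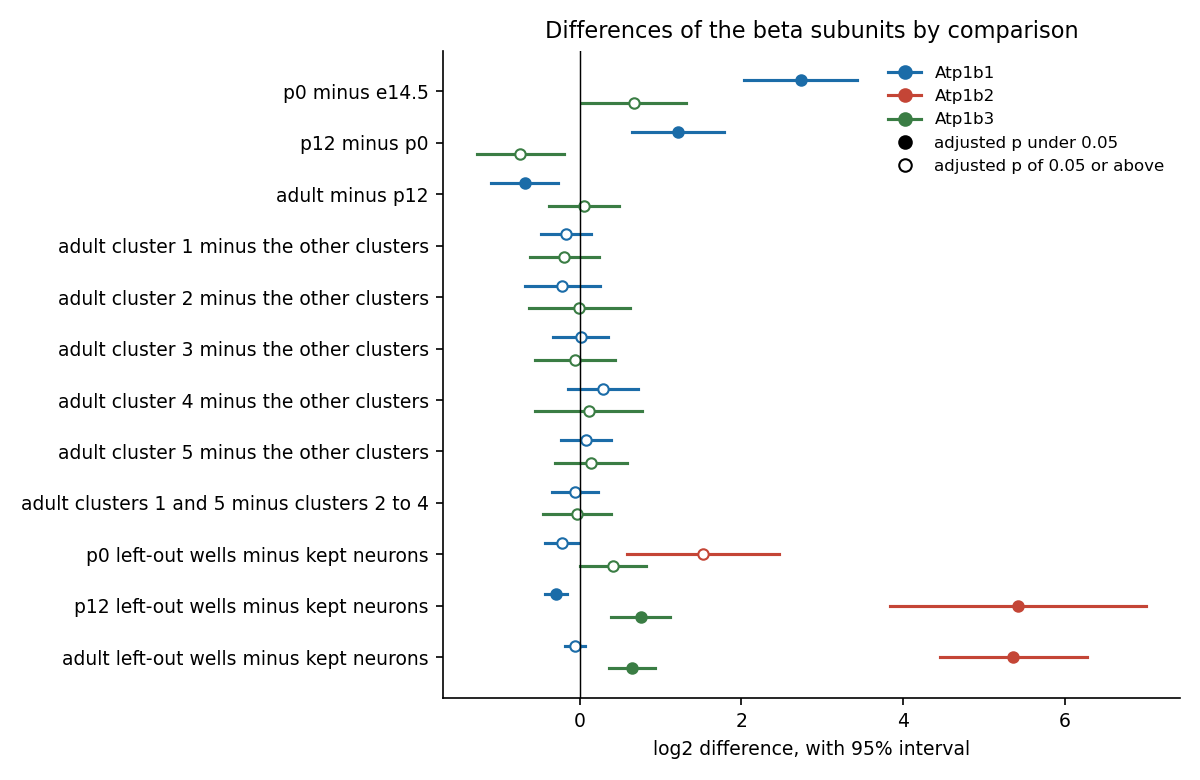
Log2 differences (x axis) of the beta subunits in each comparison (y axis), with 95% intervals. Filled points had an adjusted p under 0.05, and *Atp1b2* was under the filter on low counts outside the left-out comparisons. *Atp1b1* differs most between stages, at +2.73 from e14.5 to p0, and *Atp1b2* between left-out wells and kept neurons, at +5.36 in the adult and +5.42 at p12.

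The genes most like the members in pattern were named by the correlation of log2 CPM. Over the 13 plate sums of kept neurons, among 10054 genes, *Atp1b1* was most like *Degs1* (Pearson's r = 0.986), *Hacd2* (0.984) and *Mt1* (0.983). *Atp1b3* was most like *Vcpkmt* (0.868), *Hap1* (0.859) and *Mmgt2* (0.847), and its r with *Atp1b1* was -0.07. The plates fall into 4 stages, which set much of these values. Over the 18 adult cluster sums, among 6778 genes, *Atp1b1* was most like *Rad50* (0.881), *Bend6* (0.849) and *Rwdd1* (0.838), and *Atp1b3* most like *Ext1* (0.867), *Tcea2* (0.834) and *Trmt1l* (0.828). These sums share plates, and the values are descriptions.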

How the data were processed

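UMI counts per gene and well, deposited by the authors, were used as whole-number counts without normalization. The authors had used STAR for alignment to mm10 (NCBI annotation), assigned reads to wells by barcode and counted UMIs, and their annotation gave the stage and the hicat cluster of each kept neuron. Versions of these tools are not given in the sources used here. Plates were assigned to stages by their labels. Left-out wells are those outside the annotation with at least 2000 genes, and the wells under this limit were used for 1 description only.

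CPM was computed over all UMIs of a well. UMIs were summed over the kept neurons of a plate for stages, for clusters over each cluster's neurons on 1 plate where there were 2 or more, and over kept neurons and over left-out wells of a plate for the left-out comparison, which had plate as a replicate block since both sums come from the same plate. Replicate numbers pair no samples between stages, since a number names a different plate at each stage. Fits used edgeR's quasi-likelihood F-test (edgeR 4.0.16, R 4.3.3) after TMM scaling and filterByExpr, and adjusted p-values are Benjamini-Hochberg values over all genes tested. Unless named otherwise, an adjusted p is from edgeR. Shares of the beta UMIs were compared by exact permutation of plates, adjusted over 3 shares. Thinning drew 7000 UMIs per well at random. Depth limits the low genes, and intervals and limits (95%, with 3 counts as the floor) cover counting error only. The scripts were tested on simulated counts. Alternatives were leaving out each plate, thinned neurons, left-out wells included, DESeq2 1.42.0 or its size factors, the low count filter switched off, cluster sums from 1 or from 4 neurons upward, the block added or dropped, and plate sets alone. Tables and figures were made in Python 3.11.15 with pandas 2.3.3, numpy 2.4.6, scipy 1.17.1 and matplotlib 3.10.9.

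The members and lists were chosen with earlier results of these data known. Named are the members, their FXYD partners and called genes of the other lists, and the 3 genes most correlated with a member. The comparisons of plate sets and of cluster 5 with cluster 1 on the same plates were chosen after seeing the data. Results on certain other genes are not reported here. Clustering was not repeated, and the e14.5 left-out wells were not compared, since only 1 such well exists.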

Additional observations from a re-analysis of the deposited data

Results flagged for a closer look

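A plate was set apart where its gap to the nearest other plate was large for its group by Dixon's test. In all, 38 groups of 4 or 5 plates were screened, with CPM and the share of wells with a UMI as separate groups, and 9 were marked. Marks on both measures of the same plates are not independent. Where all other plates are at 0, a single UMI always gives a mark. The usual chance rate of 1 in 20 therefore does not apply. For *Atp1b3*, adult replicate 1 stood at 32.3 CPM in kept neurons, above the 30.0 CPM of the nearest plate, in a group whose SD was only 1.31 CPM. The other marks concern *Atp1b2*, and each rests on 1 or 2 UMIs. In kept p12 neurons replicate 3 had 0.827 CPM and a share of neurons with a UMI of 1.49%, and the other plates were at 0. In adult cluster 1, replicate 5 had 11.5 CPM and a share of 66.7% (2 of 3 neurons). In adult cluster 3, replicate 3 had 1.23 CPM and a share of 5.56%, and in adult cluster 5, replicate 2 had 0.960 CPM and a share of 10.0%, with the other plates at 0.

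Wells with fewer than 2000 genes enter no comparison, and they were marked because they hold UMIs of the members. The 30 such adult wells held 27 UMIs of *Atp1b1* and 6 of *Atp1b2* out of 39316 UMIs, and the 6 UMIs were in 2 wells.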

How the results depend on the processing

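Differences of the members kept their direction and their side of the threshold in 527 of the alternative fits, gained a call in 15 and lost one in 17, and in 49 a difference that was not called changed sign and was not called either. Shares of wells with a UMI moved by more than the spread between plates in 41 and did not in 34. The calls of *Atp1b1* from e14.5 to p0 (2.45 to 3.14) and across stages, and of *Atp1b2* between left-out wells and kept neurons in the adult and at p12, held in each alternative that tested them. Those that changed side, with the log2 difference, were as follows, and the cause was not tested. With left-out wells included, *Atp1b3* was called from e14.5 to p0 (1.03) and for any stage (1.03), *Atp1b1* was not called from p12 to the adult (-0.58), and the *Atp1b2* share of beta UMIs turned from -1.07 to 1.04 percentage points between e14.5 and the adult. With DESeq2's size factors *Atp1b3* was called from p0 to p12 (-0.75), for any stage (0.75) and across p12 clusters (1.86). With thinned neurons the calls of *Atp1b1* from p12 to the adult (-0.63) and of left-out wells at p12 for *Atp1b1* (-0.066) and *Atp1b3* (0.69) and in the adult for *Atp1b3* (0.81) were lost. With plate as a replicate block *Atp1b1* was called in adult cluster 1 (-0.24), in cluster 4 (0.40) and across clusters (range 0.51), and with replicates 1 and 2 alone in cluster 4 (0.52). Without the replicate block the p12 left-out call of *Atp1b1* was lost (-0.25). Without the filter on low counts *Atp1b2* was called for left-out wells at p0 (1.56) and for the change of that difference from p0 to p12 (3.91), and it became testable between stages (-4.64 from p0 to p12, adjusted p = 2.94e-04), with 18 of the 20 kept p0 UMIs on p0 replicate 1. With left-out wells included that step was -0.30 (adjusted p = 0.821). Leaving out 1 plate at a time gave *Atp1b1* 1.06 to 1.33 from p0 to p12, -0.80 to -0.53 from p12 to the adult, -0.37 to -0.18 for p12 left-out wells and 0.61 to 1.21 across p12 clusters. It gave *Atp1b3* -0.99 to -0.40 from p0 to p12 (called without p12 replicate 4, adjusted p = 0.0343), 0.40 to 0.99 for any stage (called without p12 replicate 4 or p0 replicate 2) and 0.63 to 0.92 for p12 left-out wells, and *Atp1b2* 0.86 to 3.41 for p0 left-out wells. Plate as a block was not estimable across p12 clusters.

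The number of genes called moved by more than 1.5 times as follows. Thinning lowered it from 3314 to 1507 (p0 against e14.5), 2162 to 697 (p12 against p0), 1687 to 761 (adult against p12) and 7707 to 3938 (any stage). In adult clusters 1 to 5 it went from 419 to 67, 2 to 1, 7 to 103, 201 to 61 and 297 to 38, for clusters 1 and 5 against 2 to 4 from 415 to 51, and for any adult cluster from 713 to 192. For left-out wells it went from 1931 to 453 (adult), 1050 to 180 (p12) and 345 to 65 (p0), for their change with stage from 39 to 12 and from 32 to 3, and for p12 and p0 clusters from 1954 to 451 and from 77 to 13. DESeq2 called 11 and 155 genes in adult clusters 2 and 3, 1107, 585 and 137 for left-out wells of the adult, p12 and p0, 21 and 10 for their change with stage, 1181 across p12 clusters and 103 across e14.5 clusters (212 in edgeR). Without the filter 684, 196, 521, 504 and 479 genes were called in adult clusters 1 to 5, 1543 for any adult cluster, 106 and 88 for the change of the left-out difference, and 268 and 389 across p0 and e14.5 clusters. With plate as a replicate block it was 930, 16, 31, 360 and 547 in adult clusters 1 to 5, 781 for clusters 1 and 5 against 2 to 4, 1181 for any adult cluster and 356 across e14.5 clusters. Without the replicate block the left-out comparisons called 734, 499 and 111 genes, and edgeR called 0 for both changes with stage, with 414 and 392 at an unadjusted p under 0.05. Replicates 1 and 2 alone gave 272, 61, 71, 421 and 187 in clusters 1 to 5 and 210 for clusters 1 and 5 against 2 to 4. Replicates 3 to 5 alone gave 258 in cluster 1, 166 in cluster 3, 166 for clusters 1 and 5 against the others and 400 for any cluster. Sums of at least 1 neuron gave 5 and 47 genes in clusters 2 and 3, and of at least 4 neurons 4 and 219.

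Leaving out 1 plate gave 1455 to 3571 genes (p0 against e14.5), 884 to 2291 (p12 against p0) and 787 to 1960 (adult against p12). In adult clusters 1 to 5 it gave 223 to 388, 2 to 4, 0 to 5 (976 to 1306 at an unadjusted p where edgeR called 0), 35 to 192 and 153 to 253, for clusters 1 and 5 against the others 130 to 334 and for any cluster 306 to 548. For left-out wells it gave 577 to 1125 (p12) and 114 to 369 (p0), for their change with stage 28 to 61 and 7 to 33, and across p12 clusters 1056 to 2046.

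The sign changes of differences that were not called were as follows. *Atp1b3* from p12 to the adult went from 0.06 to -0.20 with thinned neurons, -0.096 with left-out wells included and -0.027 with the numbered adult clusters alone (-0.074 to 0.20 leaving out 1 plate). With plate as a replicate block *Atp1b1* changed sign in adult clusters 3 (-0.081) and 5 (-0.00082), and *Atp1b3* in clusters 3 (0.18) and 4 (-0.071) and for clusters 1 and 5 against the others (0.030). With replicates 1 and 2 alone it was *Atp1b1* in cluster 3 (-0.53) and for clusters 1 and 5 against the others (0.018), and *Atp1b3* in clusters 1 (0.14) and 2 (0.099) and for clusters 1 and 5 against the others (0.50). With replicates 3 to 5 alone it was *Atp1b3* in clusters 3 (0.23) and 5 (-0.011), and with sums of at least 1 neuron *Atp1b3* in cluster 3 (0.029). DESeq2 changed *Atp1b3* in cluster 2 (0.011) and the adult minus p12 left-out difference of *Atp1b2* (0.080), and its size factors *Atp1b3* in cluster 2 (0.011) and *Atp1b1* in cluster 3 (-0.0027). Without the filter clusters 1 and 5 against the others changed for *Atp1b1* (0.011) and *Atp1b3* (0.021). With thinning it was *Atp1b1* for clusters 1 and 5 against the others (0.024), in adult left-out wells (0.077) and for their change from p0 to p12 (0.10), and *Atp1b3* for the change from p12 to the adult (0.13). Leaving out 1 plate gave *Atp1b1* -0.073 to 0.076 in cluster 3, -0.099 to 0.031 for clusters 1 and 5 against the others and -0.16 to 0.031 for the left-out change from p0 to p12. It gave *Atp1b3* -0.13 to 0.35 in cluster 2, -0.11 to 0.090 in cluster 3, -0.060 to 0.16 in cluster 4, -0.046 to 0.22 in cluster 5, -0.29 to 0.068 for clusters 1 and 5 against the others and -0.31 to 0.030 for the left-out change from p12 to the adult, and *Atp1b2* -2.69 to 0.60 for that change.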
